A study of Saccharomyces cerevisiae with 5 samples.

Results

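Chromosome VI is among the shortest chromosomes of budding yeast, Saccharomyces cerevisiae, and it has long served as a reference for origin timing. It was followed here in all 5 samples by taking every averaged position and every fitted fork segment that the files place on it. These were 538 averaged positions in each sample, of 23837 to 23858 over the genome. The segments numbered 121 of 3345 and 89 of 3189 in the galactose samples, 76 of 4545 in the glucose sample, and 120 of 6353 and 124 of 6039 in the wild-type samples. Joined across samples, they gave 10 of the genome's 407 initiation sites and 54 of its 2386 windows of 5 kb. The chromosome ends at base 270148 in the files, whose genome build is not given in the sources used here.

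Each value came from Okazaki fragments, the short stretches in which the lagging strand is made, sequenced from asynchronous cultures. The galactose group (2 samples, here named replicates 1 and 2) was strain yIW160-SSDDCS in galactose medium, in which the initiation factors Sld2, Sld3, Dbf4, Dpb11, Cdc45 and Sld7 were overexpressed by galactose induction. The glucose group (1 sample) was the same strain in glucose medium, with these 6 factors at normal expression. The wild-type group (2 samples, replicates 1 and 2) was strain yIW160, whose labels name no medium. The growth notes of all 5 samples are the same: 30 degrees, fresh medium with 2% of either sugar for 4 hours, then doxycycline at 40 µg/ml for 2.5 hours. Doxycycline serves in such strains to switch off DNA ligase I, so that Okazaki fragments stay unjoined. The labels do not say whether replicates are separate cultures, so every p-value below measures only the spread between these samples. Wild type was read as Illumina pairs and the other 3 samples as Ion Torrent single ends, so platform and strain cannot be told apart, nor can galactose medium and overexpression.

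Replication starts at origins (ARS elements), where the Mcm2-7 helicase is loaded before S phase and is switched on later by Dbf4-dependent kinase and cyclin-dependent kinase. Cdc45, Sld3 and Sld7 join the helicase, and phosphorylated Sld2 and Sld3 bind Dpb11. These factors are scarce, and in yeast early origins are known to use them first. From each origin one fork moves left and the other moves right, and forks from neighbouring origins end where they meet. An origin that has not yet fired when a fork reaches it is copied by that fork and does not fire. On chromosome VI, ARS606 and ARS607 are known as early and efficient origins, and ARS603 and ARS609 as late ones. They lie at about 168, 199, 69 and 256 kb, and the centromere lies at about 149 kb. These approximate places are background knowledge and not part of the files. No sequence of these origins was read, because no genome of the files' build was given.

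Initiation sites were read from the segments: at such a site a fork in each direction begins at 1 base and time. The initiation probability is the fraction of chromosome copies in which this happens. Sites of at least 0.1 in some sample were kept and joined across samples within 2500 bp. The mean time of a position averages the fitted paths through it. The lowest mean time is 0 on each of the 16 chromosomes in each sample, so minutes count from the earliest position of chromosome VI in that sample, not from the start of S phase. For this reason times are also given as minutes after ARS606. Differences in probability, time or direction were tested with limma over the whole genome and adjusted by Benjamini-Hochberg. The lone glucose sample was assumed there to vary like the other groups. With read counts not analysed, the depth behind each fit is unknown.

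With galactose, the late origins of chromosome VI initiated about as often as the early ones, and their mean times came level with them. In glucose and wild type the late origins initiated less often than the early ones and had mean times many minutes behind them. The early origins ARS606 and ARS607 and the site left of the centromere did not pass the test in any contrast.

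ARS606, the early origin nearest the centromere on the right arm, had an initiation probability of 1 in each of the 5 samples. The fitted positions lay within 169 bp of each other, around base 167542. It was the only one of the 407 sites of the genome with a probability of 1 in all samples, at a tolerance of 0.001. No fork passed through it in any fit, so it divides the chromosome into a left and a right part that were copied separately. Its mean time was 0.175 and 0.632 min in the galactose samples, 2.64 min in the glucose sample, and 0.248 and 0.0831 min for wild type. Only in the glucose sample was it not within 1 min of the earliest position.

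ARS607, the early origin farther right, was listed around base 199714. Its initiation probability was 0.878 and 0.853 in wild type, 1 with glucose, and 0.820 and 1 with galactose. The galactose replicates enclosed all other samples. The mean difference of galactose was -0.0902 ± 0.0955 (SE) from glucose (limma, adjusted p = 0.622) and 0.0440 ± 0.0780 from wild type (adjusted p = 0.682). Counted from ARS606, its mean time was 0.828 and -0.262 min for the galactose replicates, -2.43 min for glucose, and -0.0783 and 0.850 min for wild type. The glucose sample is the one in which ARS607 preceded ARS606 by more than 2 min.

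ARS609, the late origin near the right end, had the largest difference between galactose and wild type among the landmark origins. Around base 256425 its initiation probability was 0.940 and 0.957 in galactose, 0.135 in glucose, and 0 in both wild-type samples. The galactose samples stood far above the other 3 and close to each other. Galactose was higher by 0.814 ± 0.0231 (SE) than glucose (limma, adjusted p = 0.00322) and by 0.949 ± 0.0189 than wild type (adjusted p = 0.00241). Both calls remained when each replicate of galactose or wild type was left out in turn, with a highest adjusted p of 0.0165. A value of 0 means that no site of at least 0.1 was listed, and wild-type replicate 1 did hold an event of 0.0589 there. By its excess in galactose over the other 3 samples, 0.904, this site ranked 8 of 407. The difference between glucose and wild type, 0.135 ± 0.0231, did not pass (adjusted p = 0.106).

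ARS603, the late origin of the left arm, was listed around base 68618. Its initiation probability was 0.830 and 0.925 with galactose, 0 with glucose, and 0.405 and 0.522 in the wild-type samples. Both galactose samples lay above both wild-type samples. The excess over wild type was 0.414 ± 0.0652 (SE; limma, adjusted p = 0.0286), and it no longer passed when any 1 replicate was left out (adjusted p from 0.125 to 0.197) or with sites joined within 1000 bp (adjusted p = 0.174). The glucose sample listed a site of 0.639 at base 63897 instead, with none in the other samples. That place is 5.10 kb from the approximate position of ARS603, just outside the 5 kb rule used to assign a landmark, and 4.72 kb from the site of the other samples. Under that rule galactose exceeded glucose by 0.878 ± 0.0798 at base 68618 (adjusted p = 0.0142; 0.0834 to 0.107 without single replicates) and lay 0.639 below it at base 63897. The latter site entered the list through the glucose sample alone, so that difference is a description with no test. With sites joined within 5000 bp they became 1 site, and galactose exceeded glucose there by 0.239 (adjusted p = 0.131).

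Outside the named origins, the site around base 217311 between ARS607 and ARS609 was listed only with galactose. Its initiation probability was 0.770 and 1 in galactose and 0 in the other 3 samples. No glucose or wild-type event of at least 0.1 lay near it. An event of 0.0898 stood at base 221300 in glucose and one of 0.0879 at base 236476 in wild-type replicate 2. The site entered the list through the galactose samples alone, so its excess of 0.885 is a description with no test. The fitted positions of the galactose replicates lay 1565 bp apart, and with sites joined within 1000 bp they became separate sites, the nearer with an excess of 0.5.

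On the left arm, the outermost site around base 18741 had probabilities of 0.378 and 0.362 in the galactose samples, 0.272 in the glucose sample, and 0.181 and 0.179 for wild type. The 3 groups did not overlap. Galactose exceeded wild type by 0.190 ± 0.0188 (SE; limma, adjusted p = 0.0151), while the excess over glucose, 0.0974 ± 0.0231, did not pass (adjusted p = 0.0744). The next site, around base 33278, had 0.204 and 0.217 in wild type, 0 with glucose, and 0.557 and 0.645 with galactose. Galactose was higher by 0.601 ± 0.0504 than glucose (adjusted p = 0.0125) and by 0.391 ± 0.0412 than wild type (adjusted p = 0.0166). At both sites these calls ended without either wild-type replicate, with highest adjusted p of 0.0612 at the outer site and 0.106 and 0.137 at the inner one. With sites joined within 1000 bp the outer site's excess over wild type was 0.0905 (adjusted p = 0.716).

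The remaining pair of sites lies between ARS603 and the centromere. Around base 118423 the probability was 0.776 and 0.700 for the galactose replicates, 0.710 for glucose, and 0.405 and 0.244 for wild type. Here the glucose sample stood beside the galactose samples and not beside wild type. Galactose exceeded wild type by 0.413 ± 0.0763 (SE; limma, adjusted p = 0.0388), a call that ended without any 1 replicate (adjusted p from 0.0895 to 0.226). Glucose exceeded wild type by 0.385 ± 0.0935 (adjusted p = 0.157). Around base 136077, just left of the centromere, it was 0.678 and 0.805 with galactose, 0.767 with glucose, and 0.738 and 0.768 in the wild-type samples. The galactose replicates enclosed the other samples, and the difference from wild type was -0.0113 ± 0.0572 (adjusted p = 0.922).

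**Figure D1:**
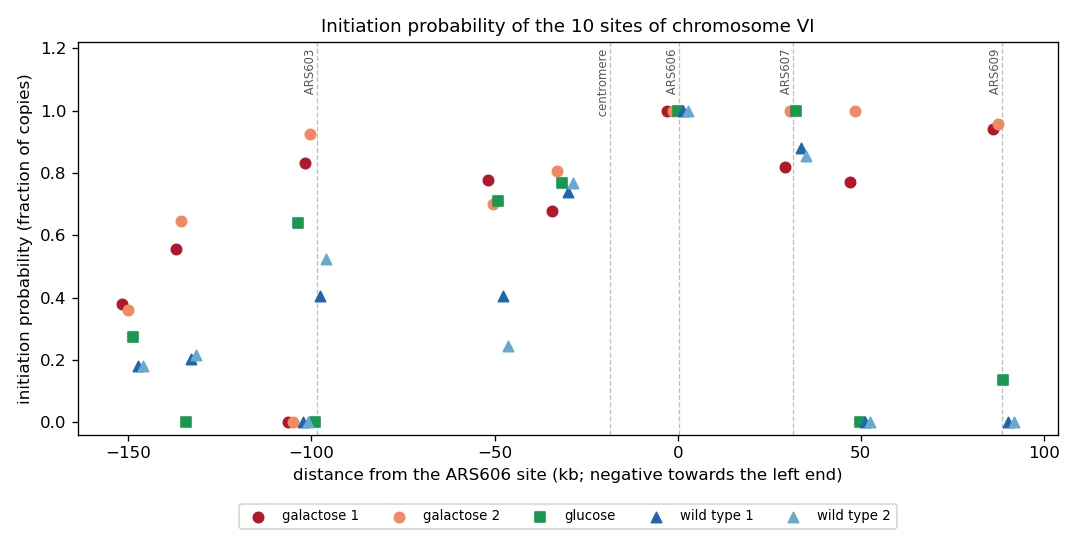
Initiation probability (fraction of chromosome copies) of the 10 sites of chromosome VI against their distance from the ARS606 site in kb, with 1 marker per sample (circles galactose, square glucose, triangles wild type), moved slightly sideways so that markers do not cover each other. Dashed lines mark the approximate landmarks. All samples reach 1 at ARS606, while at ARS609 the galactose samples sit at 0.940 and 0.957 and the others at or under 0.135.

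Of the 10 sites, 8 were listed in more than 1 group, and the sites at bases 63897 and 217311 in 1 group each. Among the 8, 3 rose and 0 fell in galactose against glucose (limma), with 4 at an unadjusted p under 0.05. That is 37.5%, beside 24.8% of the 298 such sites of the genome. The 3 include ARS603 at base 68618, where glucose counts as 0 because its site of 0.639 lies 4.72 kb away. With both joined within 5000 bp the excess there was 0.239 in place of 0.878, so that call depends on how sites are joined. Against wild type, 5 of 8 rose and 0 fell, with 5 at an unadjusted p under 0.05, which is 62.5% beside 39.6%. Glucose against wild type gave 0 calls of 8, beside 1.01%, with 5 at an unadjusted p under 0.05. Over all 10 sites, which adds the sites listed in 1 group only, the calls numbered 5 against glucose (29.5% of all 407 sites were called), 6 against wild type (40.3%) and 1 between glucose and wild type (2.95%). The calls at those added sites are a description with no test. Without either wild-type replicate, calls over the 10 sites fell to 2 against glucose and to 1 against wild type. The median galactose minus wild type difference was 0.290 over the 10 sites, beside 0.184 over the genome, and the median galactose minus glucose difference was 0.0627, beside 0.121. Both galactose samples lay above the other 3 at 5 of 10 sites, beside 210 of 407 in the genome, and below them at 0. The 5 include base 217311, which was listed through galactose alone and so lies above by construction. The 407 also hold sites listed in 1 group only, so these counts are a description with no test.

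The summed initiation probability estimates the initiations per copy of the chromosome. It was 6.75 and 7.39 in the galactose samples, 4.52 in the glucose sample, and 3.81 and 3.78 for wild type. The galactose mean of 7.07 ± 0.456 (SD, n = 2) was 1.56 times the glucose value and 1.86 times the wild-type mean of 3.80 ± 0.0204 (SD, n = 2). This corresponds to 1 initiation per 40.0 and 36.5 kb with galactose, per 59.7 kb with glucose, and per 70.9 and 71.4 kb for wild type. Galactose against the other 3 samples gave p = 0.1 in a two-sided exact permutation test, the smallest p this design allows, and 0.12 after adjustment over 6 measures. Galactose listed 9 sites per sample and the other 3 samples 7 each. The share of the genome's summed probability that fell on chromosome VI was 2.29% and 2.06% in wild type, 2.49% with glucose, and 2.71% and 2.72% with galactose. The exact permutation test of that share gave p = 0.2 (adjusted p = 0.2). Among the 16 chromosomes, the ratio of galactose to wild type was highest on chromosome VI, with 1.69 on chromosome I next, and the ratio to glucose ranked 4. The ratio of glucose to wild type, 1.19, was also the highest of the 16. These ranks are a description and have no test.

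The contrast between late and early origins was then taken within each sample, which does not depend on where time starts. The mean probability of ARS603 and ARS609 minus that of ARS606 and ARS607 was -0.0244 and -0.0590 in galactose. It was -0.933 in glucose and -0.737 and -0.665 in wild type. Late and early origins were thus nearly level in both galactose samples, and the 3 other samples all lay far below (exact permutation p = 0.1, adjusted p = 0.12). With the glucose site at base 63897 counted as ARS603, which a distance of 6 kb does, the galactose excess was 0.630 in place of 0.737. The glucose value of -0.933 counts ARS603 as 0, because that site of 0.639 lies 5.10 kb from its approximate place. It becomes less negative when that site is counted. The mean time of the late origins minus that of the early ones was -0.202 and -0.106 min for the galactose replicates, 14.7 min for glucose, and 15.6 and 13.1 min for wild type. The galactose samples showed no delay of the late origins, and each of the other 3 showed one of 13.1 min or more (exact permutation p = 0.1, adjusted p = 0.12). By mean time, the labels late and early for these origins therefore fit the wild-type and glucose samples and not the galactose samples. The start times given below do not follow these labels in every wild-type and glucose sample.

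At ARS609 the mean time after ARS606 was 0.0313 and -0.626 min with galactose, 13.7 min with glucose, and 17.5 and 18.4 min in the wild-type samples. At ARS603 it was 0.394 and 0.152 min in the galactose samples, 13.3 min in the glucose sample, and 13.7 and 8.74 min for wild type. The wild-type mean was 11.2 ± 3.54 min (SD, n = 2) at ARS603 and 17.9 ± 0.650 min (SD, n = 2) at ARS609, so its replicates were farther apart at ARS603. Both late origins replicated within 1 min of ARS606 in both galactose samples.

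A late mean time can hold early starts, because it averages the copies that fired with those a passing fork copied. Start times are given relative to the start at ARS606, negative when earlier. At ARS603 in wild-type replicate 2, the copies that fired started at -1.35 min, yet the mean time lay 8.74 min after ARS606. In wild-type replicate 1 the fitted start at ARS603 was 5.10 min. The start of the glucose site at base 63897 was 8.24 min. In galactose the starts at ARS603 were -1.99 and -0.661 min. So 3 of the 4 samples that list this site started it before ARS606. At ARS609 the start was 0.728 min in glucose, beside a mean time of 13.7 min, and -0.827 and -1.17 min in galactose. The event of 0.0589 there in wild-type replicate 1, under the minimum of 0.1, started at -9.49 min in that sample's own minutes. In the same minutes ARS606 started at 0.106 min. At base 118423 the starts in wild type were -3.53 and -3.59 min, although only 0.405 and 0.244 of copies fired there. In these fits a low probability and a late mean time did not go with a late start at every site.

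The spread of the fitted paths through a place shows the same mixture. At ARS606 a single path was fitted and the spread was 0 in each sample. At ARS603 the SD of path times was 8.35 and 11.4 min in wild type, 5.37 min with glucose, and 5.89 and 3.65 min with galactose. At ARS609 it was 3.73 and 2.89 min for the galactose replicates, 5.94 min for glucose, and 7.91 and 6.28 min for wild type. The galactose samples had the lowest spread of the 5 at ARS609. At ARS603 the glucose sample lay between them.

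Along the chromosome, mean time fell at both ends with galactose. The left end was the latest position in all 5 samples, at 12.7 and 12.2 min with galactose, 31.2 min with glucose, and 30.5 and 25.4 min in the wild-type samples. It came 11.6 to 12.5 min after ARS606 in galactose and 25.4 to 30.3 min after it in the other samples. The right end followed ARS606 by 4.30 and 3.68 min in the galactose samples, 18.1 min in the glucose sample, and 22.0 and 22.9 min for wild type. At both ends the galactose samples were far earlier than the other 3, and with galactose the left end trailed the right end. The SD of mean time over the 54 windows was 2.32 min in both galactose samples, 7.87 min with glucose, and 8.29 and 6.68 min for wild type (exact permutation p = 0.1, adjusted p = 0.12).

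**Figure D2:**
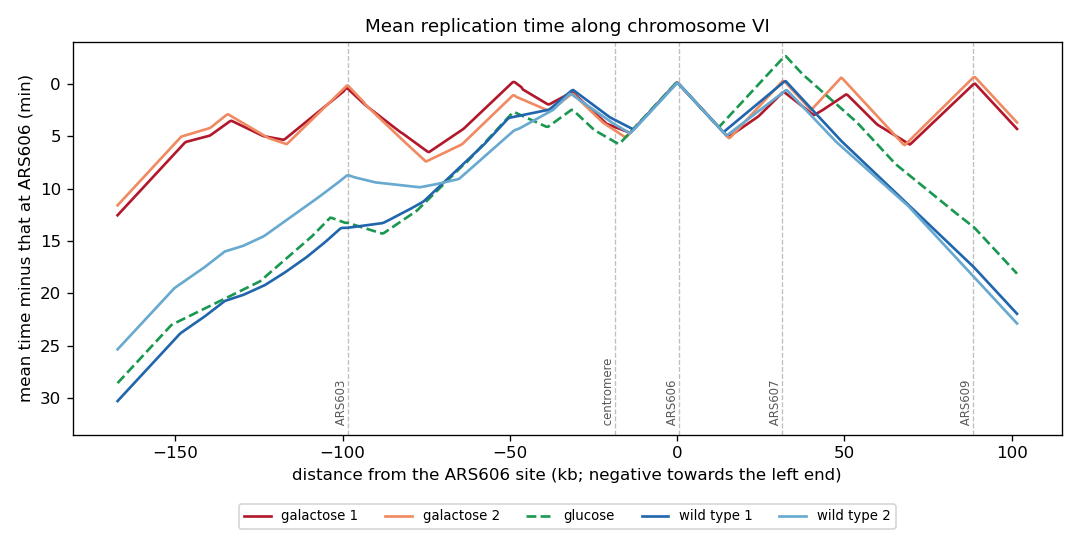
Mean replication time, in minutes after that at ARS606 and with earlier times at the top, against distance from the ARS606 site in kb, 1 line per sample (reds galactose, dashed green glucose, blues wild type). The galactose and wild-type lines run close together between the centromere and ARS607, and the galactose lines lie above the other 3 at both ends, with a galactose minus glucose difference of -16.5 min at the left end.

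In limma, 12 of 54 windows were earlier in galactose than in glucose and 0 were later, 22.2% beside 7.63% of all 2386 windows. The median difference was -5.42 min over chromosome VI and -2.77 min over the genome, each chromosome counted from its own zero. The windows formed a run at each end. From base 1 to 40000 the mean time was 7.04 and 6.73 min in galactose and 25.7 min in glucose (adjusted p from 0.0421 to 0.0471). From base 250001 to 270000, which holds ARS609, it was 1.96 and 1.80 min in galactose and 17.7 min in glucose (adjusted p from 0.0290 to 0.0409). Galactose minus glucose was -18.8 min in the left run and -15.8 min in the right one, each sample counted from its own zero. At the chromosome ends the difference was -18.7 and -16.4 min from these zeros. Counted from ARS606, it was -16.5 min at the left end and -14.1 min at the right end.

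Against wild type, again 12 of 54 windows were earlier in galactose and 0 later, 22.2% beside 7.8%. The left run, base 1 to 35000, averaged 7.45 and 7.07 min with galactose and 25.0 and 20.0 min for wild type (adjusted p from 0.0464 to 0.0481). The right run, base 245001 to 270000, averaged 2.15 and 2.00 min with galactose and 18.2 and 18.9 min for wild type (adjusted p = 0.0419). The groups did not overlap in either run, but the windows were chosen by this same test, so that is no added support. These time calls were close to the threshold: 0 of them passed when any 1 replicate of galactose or wild type was left out. With time centred on the genome median of each sample, both contrasts also gave 0. The late arms themselves were not called between glucose and wild type, where 0 of 54 windows passed limma and 0 had an unadjusted p under 0.05, beside 3.77% called over the genome.

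The centromere, where yeast chromosomes replicate early, lay between the site at base 136077 and ARS606. Its mean time after ARS606 was 3.45 and 3.88 min in wild type, 5.55 min with glucose, and 4.12 and 4.46 min with galactose. The groups spanned about 2 min, and the glucose sample was the latest. Rightward forks from the left copied 0.678 and 0.805 of copies with galactose, 0.767 with glucose, and 0.738 and 0.768 for wild type. The galactose replicates enclosed the others, and no window there passed limma in direction or time.

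At the main settings, windows called for fork direction between galactose and both other groups lay around ARS609, left of base 217311 and right of base 33278. The share of windows called was near that of the genome, at 14.8% beside 11.8% against glucose and 20.4% beside 18.4% against wild type. The calls needed both galactose replicates, as given below. No window within 20 kb right of ARS603 passed. Between ARS607 and ARS609, rightward forks copied 48.2% and 49.0% of the interval with galactose, 90.3% with glucose, and 94.1% and 93.8% for wild type. In glucose and wild type this stretch of 57 kb was copied mostly by rightward forks. With galactose it was divided about equally between rightward and leftward forks. Between ARS603 and ARS606, the rightward percent was 49.6 and 50.0 for the galactose replicates, 31.1 for glucose, and 30.3 and 37.7 for wild type. From the left end to ARS603 it was 25.5 and 26.5 with galactose, 17.9 with glucose, and 15.6 and 15.3 in the wild-type samples. Between the early origins ARS606 and ARS607 it was 53.2 and 49.2 in the galactose samples, 37.9 in the glucose sample, and 49.3 and 53.2 for wild type, so that glucose alone stood apart there.

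**Figure D3:**
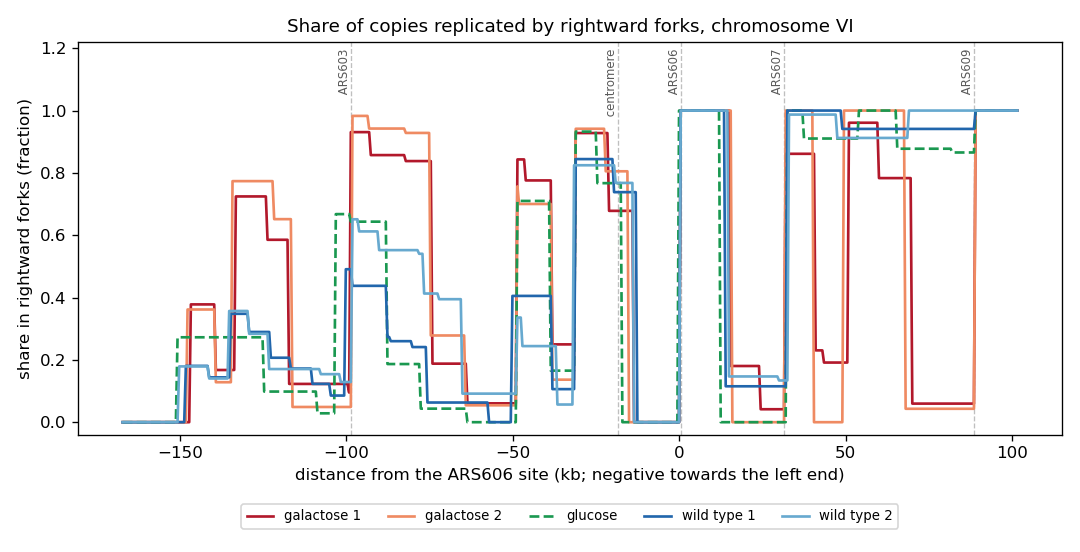
Fraction of copies replicated by rightward forks against distance from the ARS606 site in kb, 1 line per sample (reds galactose, dashed green glucose, blues wild type). A line that rises marks an initiation site and one that falls marks termination. Right of ARS607 the galactose lines drop and rise again before ARS609, at 48.2% and 49.0% rightward over the interval, and the other lines stay high, at 90.3% for glucose and 94.1% and 93.8% for wild type.

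In limma on the rightward share per window, 3 of 54 windows had a higher share with galactose than with glucose and 5 a lower one, 14.8% beside 11.8% of all windows. On the arcsine square-root scale the split turned to 5 higher and 2 lower. All 5 lower windows lay around ARS609 or left of base 217311, so some of the calls there did not hold on that scale. From base 35001 to 50000 the rightward share was 0.270 and 0.252 in wild type, 0.185 with glucose, and 0.663 and 0.738 with galactose. That stretch lies right of the site at base 33278. It was higher in galactose than in glucose by 0.516 (adjusted p from 0.0230 to 0.0349) and than in wild type by 0.440 (adjusted p from 0.0183 to 0.0241). From base 240001 to 260000, around ARS609, the share was 0.220 and 0.206 for the galactose replicates, 0.894 for glucose, and 0.951 and 1 for wild type. Galactose was lower, with a difference of -0.681 from glucose (adjusted p from 0.0178 to 0.0253) and -0.763 from wild type (adjusted p from 0.0109 to 0.0174). The third run against glucose was the window from base 210001 to 215000, left of the site at base 217311, with shares of 0.2003 and 0 with galactose, 0.910 with glucose, and 1 and 0.987 in the wild-type samples (adjusted p = 0.0492).

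Against wild type, 5 windows were higher and 6 lower, 20.4% beside 18.4%. Besides the runs above, they covered base 20001 to 30000, with rightward shares of 0.309 and 0.314 in galactose and 0.166 and 0.164 in wild type (limma, adjusted p from 0.0337 to 0.0380), and base 205001 to 215000, with 0.430 and 0.295 in galactose and 1 and 0.987 in wild type (adjusted p from 0.0231 to 0.0250). Glucose and wild type gave 0 calls in limma, beside 0% over the genome, with 10 windows at an unadjusted p under 0.05. Without either galactose replicate, 0 share windows passed against glucose or wild type. Without either wild-type replicate, 5 passed against glucose and 4 or 5 against wild type.

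Termination is not independent of initiation in these fits. On chromosome VI the summed probability of all initiations minus that of all terminations was 1 in every sample. Termination events of at least 0.1 summed to 5.53 and 6.29 in the galactose samples, 3.37 in the glucose sample, and 2.37 and 2.35 for wild type (exact permutation p = 0.1, adjusted p = 0.12). Where forks met also follows from the fitted sites, their start times and the fork speed, fixed at about 2900 bases per minute. The meeting places below restate the fitted initiations as positions and are not separate evidence. Between ARS607 and ARS609 termination summed to 0.0553 and 0.0750 in wild type, 0.224 with glucose, and 1.57 and 1.96 with galactose. In galactose replicate 1 the strongest events of this interval lay at base 208408, with 0.631, and at base 237136, with 0.724. Galactose replicate 2 had its events at base 207580, with 1, and at base 235476, with 0.957. Thus forks met on each side of the site at base 217311 in galactose, at places that differed by under 2 kb between replicates.

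Between ARS606 and ARS607, forks met in all 5 samples near the middle. The mean termination position was 184 and 183 kb for the galactose replicates, 180.0 kb for glucose, and 181 and 183 kb for wild type. The summed termination there was 0.958 and 1 with galactose, 1 with glucose, and 0.882 and 0.866 in the wild-type samples. Between ARS603 and ARS606 it was 2.38 and 2.48 in the galactose samples, 2.12 in the glucose sample, and 1.58 and 1.66 for wild type. Left of ARS603 it was 0.353 and 0.267 in wild type, 0.269 with glucose, and 0.837 and 0.954 with galactose. The strongest events right of the centromere, where forks from base 136077 met those from ARS606, lay at bases 153491 and 152177 for the galactose replicates, 150172 for glucose, and 154524 and 153540 for wild type. No termination was fitted between ARS609 and the right end in any sample.

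**Figure D4:**
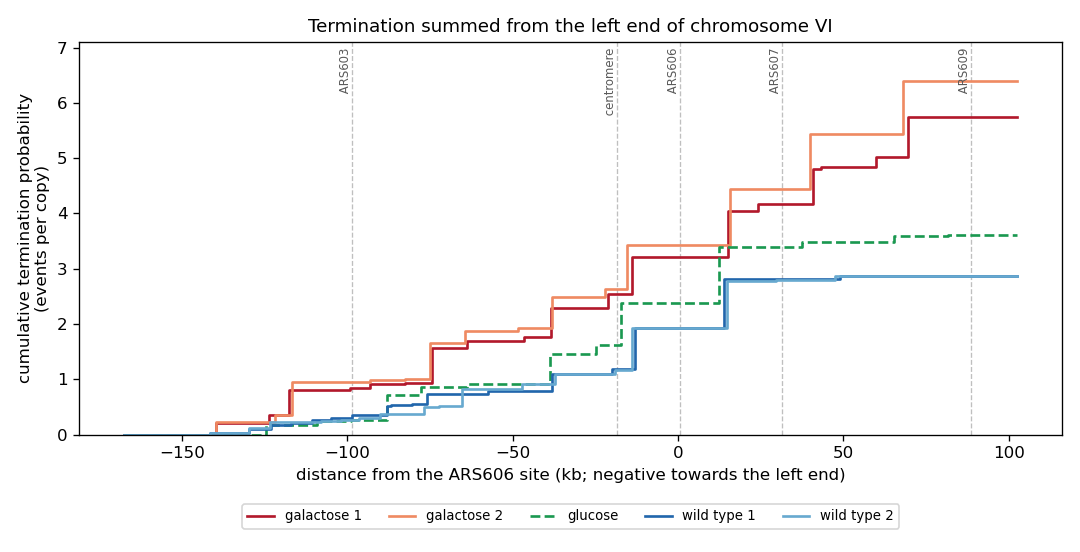
Termination probability summed from the left end (events per chromosome copy) against distance from the ARS606 site in kb, 1 line per sample (reds galactose, dashed green glucose, blues wild type). Steps are places where forks met. The wild-type lines are nearly flat right of ARS607, where termination sums to 0.0553 and 0.0750, and the galactose lines climb there by 1.57 and 1.96.

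What copied each late origin also differed between samples. At ARS609, forks passing from the left copied 0.0596 and 0.0430 of copies with galactose, 0.865 with glucose, and 0.941 and 1 for wild type. At ARS603, forks passing leftward from the centromere side copied 0.0687 and 0.0170 of copies in galactose, 0.344 with glucose, and 0.509 and 0.349 for wild type. Forks passing rightward through that base copied 0.0944 and 0.0484 of copies with galactose, 0.656 with glucose, whose own site lies to the left of it, and 0.0855 and 0.129 for wild type. In wild type, copies of ARS603 that did not fire were therefore mostly copied from the centromere side. At base 217311, rightward forks copied 0.910 in glucose and 0.941 and 0.912 in wild type.

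The galactose replicates were closer to each other on this chromosome than either was to any other sample. The mean absolute difference of mean time per window was 0.623 min between the galactose samples and 1.87 min between the wild-type samples. Between galactose and the other samples it ran from 5.93 to 8.81 min. The glucose sample differed from wild-type replicate 1 by 1.80 min, less than the wild-type replicates from each other, and from replicate 2 by 3.37 min. For site probabilities, the mean absolute difference over the 10 sites was 0.0829 within galactose and 0.0347 within wild type. Galactose differed there from glucose and wild type by 0.317 to 0.417. Glucose differed from wild-type replicates 1 and 2 by 0.193 and 0.222, more than these replicates from each other. These values count bases 63897 and 68618 as separate sites. In rightward share per window, glucose differed from wild-type replicates 1 and 2 by 0.0867 and 0.121, beside 0.0643 within wild type. Glucose thus lay within the wild-type spread only in time and only against replicate 1.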

How the data were processed

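Per the labels, Okazaki fragments of 5 samples were sequenced, and the authors fitted fork paths to each sample separately. The sources used here name no aligner, genome build or fitting software. The deposited tables hold line segments with times in minutes and a probability as a fraction (0 to 1), the same segments sampled along the chromosome, and the probability-weighted mean time every 500 bp. All longer segments run at about 2900 bases per minute, so fork speed was fixed in the authors' fit. The tables used hold no read counts, so depth is unknown, and intervals that rest on it are left out.

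Time and rightward share were averaged in windows of 5 kb. Sites (probability of at least 0.1) were joined within 2500 bp, with 0 where a sample lists none. limma 3.58.1 (R 4.3.3; lmFit, eBayes) was fitted on all windows or sites of the genome with 3 groups, 2 residual degrees of freedom and Benjamini-Hochberg at 0.05, and was tested on simulated data. The same forks cross adjacent windows and sites, which are therefore not independent. Values per sample were compared by two-sided exact permutation tests of 2 galactose samples against the other 3 (smallest p 0.1), adjusted over 6 measures. Galactose against glucose alone could not go below 0.333. Other steps used scipy 1.17.1, pandas 2.3.3, numpy 2.4.6 and matplotlib 3.10.9 under Python 3.11.15.

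Every site of chromosome VI is accounted for. Values in all samples are given for the sites nearest to ARS603, ARS606, ARS607 and ARS609 within 5000 bp, for each other site that reaches 0.5 or passes limma, for the centromere and both ends, for the intervals between them, and for every run of adjacent windows past the threshold. The members and lists were chosen with earlier results of these data known. Alternatives were other window sizes, joining distances and minimum probabilities, an arcsine scale, centred times and leaving out each replicate.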

Additional observations from a re-analysis of the deposited data

How the results depend on the processing

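Alternatives changed one choice at a time. Where leaving out a replicate left a group with 1 sample, that sample was assumed to vary like the others. Time windows called in galactose against glucose (12 of 54) numbered 24 of 108 in windows of 2500 bp and 6 of 27 in windows of 10 kb. Against wild type they numbered 25 of 108 and 6 of 27. Both counts were 0 with genome-median centring, and 0 without any 1 replicate. With times centred on each chromosome's median, chosen after seeing the data, they were 0 against glucose and 4 against wild type. Share windows against glucose (8) numbered 21 in windows of 2500 bp, 5 in windows of 10 kb, 7 on the arcsine scale (5 higher, 2 lower, against 3 and 5), and 0 to 5 without single replicates. Those against wild type (11) numbered 23 in windows of 2500 bp and 0 to 5 without single replicates. Smaller and larger windows change the number tested.

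Sites called against glucose (5) were 3 when joined within 1000 bp, 3 within 5000 bp, and 2 to 5 without single replicates. Those against wild type (6) were 3 within 1000 bp and 1 to 4 without single replicates. Those of glucose against wild type (1) were 0 within 5000 bp, 2 at a minimum of 0.2 and 3 on the arcsine scale. With joining at 2500 bp, the calls against glucose include the sites at bases 63897 and 217311. Those against wild type include base 217311, and the 1 call of glucose against wild type is base 63897. Each of these sites entered the list through 1 group alone, so its calls are a description with no test. The site at base 63897 reversed against glucose when joined within 5000 bp (0.239), since it then holds ARS603. The galactose excess in late minus early probability (0.737) was 0.630 within 6000 bp, an alternative chosen after seeing the data, and 0.719 to 0.793 without single replicates. The difference in SD of time (-5.29 min) was -8.90 min as an interquartile range. ARS609 passed in all 9 alternatives against both other groups. At a minimum of 0.2 the glucose event of 0.135 drops out and the site is listed through galactose alone. That alternative is therefore a description with no test. Leaving out replicates reversed no difference per sample. No paired analysis was possible because the labels tell samples of a group apart by letters and give no replicate numbers; the numbers 1 and 2 used here only name them.

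The fits give no read counts, so what depth limits could not be measured, and 2 residual degrees of freedom limit every test. Platform cannot be told apart from strain, nor galactose medium from overexpression.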
